A study of Mus musculus with 22 samples.

Results

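The genes described here lie between 50 and 60 Mb of mouse chromosome 14 (GRCm38). A gene was taken when its start fell in that interval and it had at least 10 counts in at least 3 of the 22 RNA-seq libraries. *Ppp1r3e*, which lies in the same interval, was left out by the rule. The interval was chosen by the genotype comparison in neural progenitors, where several of its genes had small unadjusted p-values, so the differences in that cell type describe how the window was found and support nothing. Of 450 annotated genes that start in the window, 129 met the rule, out of 17945 genes in the series with the same count minimum. *Rnase6* and *3110083C13Rik* were just inside the minimum, each with 10 or more counts in 3 libraries, and *Gzme*, *Mcpt8*, *Gm10364*, *Trac* and *Rpph1* were just outside it with 2.

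The study asked what loss of *Phf8*, an X-linked gene for a histone demethylase, does to transcription. RNA was sequenced from wild type (WT) and *Phf8* knockout (KO) embryonic stem cells (ESC, 2 WT and 2 KO), neural progenitor cells (NPC, 3 and 3), ventral striatum (STR, 3 and 3) and prefrontal cortex (PFC, 3 and 3). Every sample carries the strain label B6x129SvJ. ESC came from outgrowths of blastocysts and were grown on gelatin or feeder cells, NPC came from embryos of day E16.5, and the brain regions came from mice 2 months old. The KO allele lacks exons 7 and 8. It was made in V6.5 ESC, a line of mixed 129 and B6 origin, by targeting and then a Cre step, each followed by picking clones, and the mice were kept on a mixed background. No label gives sex, litter, clone or the parental strain of any chromosome, and the counts hold no allele information, so the strain origin of the window was not determined for any sample. Nothing states that libraries of a group came from separate cultures or animals, so p-values measure the spread between these libraries.

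The window is gene-dense and mixed in function. Near its start lie the ribonuclease A family, secreted RNA-cutting enzymes that include angiogenin (*Ang*), and the purine nucleoside phosphorylases *Pnp* and *Pnp2*, duplicated genes whose enzymes split purine nucleosides for salvage. Further along lie the T cell receptor alpha and delta segments, the cardiac myosins *Myh6* and *Myh7*, the proteasome genes *Psmb5*, *Psme1* and *Psme2*, and the connexins *Gjb2* and *Gjb6*, which build gap junctions of astrocytes in the brain.

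None of the 172 T cell receptor segments and 33 olfactory receptor genes of the window met the count minimum. The 129 genes comprised 120 protein-coding genes, 5 antisense genes, 2 processed pseudogenes, 1 lincRNA and 1 bidirectional lncRNA. Transcripts ran from the plus strand for 60 of them and from the minus strand for 69. The widest interval without a member was 1.92 Mb, between the starts of *Sall2* and *Dad1*. The first member was *Ttc5*, at chr14:50765415-50785519, and the last was *Atp8a2*, at chr14:59638540-60197179.

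In NPC, 5 of the 9 members with small p lie within 140.0 kb, from *Gm26782* to *Rnase10*, a stretch that holds 8 members. Promoter sequences of that stretch are shown because neighbours with adjoining starts had different values, together with that of *Psmb5*, the member with the smallest p in NPC, which lies outside it. They are RefSeq promoters on GRCm38.p6, from 250 bases before to 50 bases after a start, written 5′ to 3′ on the gene's own strand, with GC boxes (GGGCGG or its reverse complement CCGCCC) in capitals.
Gm26782 promoter, chr14:50870046-50870345, plus strand: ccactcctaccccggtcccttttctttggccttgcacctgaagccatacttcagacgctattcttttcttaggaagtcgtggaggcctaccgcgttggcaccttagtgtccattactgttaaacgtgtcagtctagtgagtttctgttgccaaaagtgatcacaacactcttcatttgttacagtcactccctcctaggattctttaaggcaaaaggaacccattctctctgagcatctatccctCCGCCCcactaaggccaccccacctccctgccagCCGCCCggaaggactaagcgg
Osgep promoter, chr14:50924844-50925143, minus strand: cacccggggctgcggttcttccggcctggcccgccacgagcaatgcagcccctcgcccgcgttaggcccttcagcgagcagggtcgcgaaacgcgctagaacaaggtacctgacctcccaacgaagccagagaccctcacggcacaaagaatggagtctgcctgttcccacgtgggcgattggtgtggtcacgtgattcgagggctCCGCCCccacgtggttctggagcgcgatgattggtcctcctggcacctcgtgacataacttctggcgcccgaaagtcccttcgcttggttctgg
Apex1 promoter, chr14:50924699-50924998, plus strand: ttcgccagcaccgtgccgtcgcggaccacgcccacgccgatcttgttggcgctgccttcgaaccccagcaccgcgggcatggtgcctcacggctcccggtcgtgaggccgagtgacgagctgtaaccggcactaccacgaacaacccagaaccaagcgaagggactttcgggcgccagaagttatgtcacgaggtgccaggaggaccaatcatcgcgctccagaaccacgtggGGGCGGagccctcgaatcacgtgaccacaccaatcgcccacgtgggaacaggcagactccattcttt
Pnp promoter, chr14:50944053-50944352, plus strand: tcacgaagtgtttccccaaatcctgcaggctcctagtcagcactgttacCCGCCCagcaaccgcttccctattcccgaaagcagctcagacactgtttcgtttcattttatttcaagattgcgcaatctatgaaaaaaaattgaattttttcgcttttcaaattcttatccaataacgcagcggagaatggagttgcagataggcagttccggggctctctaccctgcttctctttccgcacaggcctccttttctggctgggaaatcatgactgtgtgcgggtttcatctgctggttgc
Rnase10 promoter, chr14:51007501-51007800, plus strand: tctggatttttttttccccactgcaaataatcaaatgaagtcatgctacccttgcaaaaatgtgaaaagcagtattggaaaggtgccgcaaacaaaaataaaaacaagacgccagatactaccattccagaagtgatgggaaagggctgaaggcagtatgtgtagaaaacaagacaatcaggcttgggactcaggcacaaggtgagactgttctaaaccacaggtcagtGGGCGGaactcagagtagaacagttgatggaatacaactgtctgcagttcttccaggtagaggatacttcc
Psmb5 promoter, chr14:54617946-54618245, minus strand: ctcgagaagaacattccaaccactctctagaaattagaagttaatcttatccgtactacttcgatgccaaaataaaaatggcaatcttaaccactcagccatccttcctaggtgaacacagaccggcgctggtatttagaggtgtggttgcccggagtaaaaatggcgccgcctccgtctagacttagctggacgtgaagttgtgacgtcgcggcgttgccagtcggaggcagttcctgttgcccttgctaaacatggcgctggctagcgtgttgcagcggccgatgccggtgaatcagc
The *Osgep* and *Apex1* promoters point away from each other and share 155 bases, so that 1 GC box is read in both, as CCGCCC in *Osgep* and GGGCGG in *Apex1*. *Gm26782* held 2 GC boxes, *Pnp* and *Rnase10* 1 each, and *Psmb5* none. A GC box was present in 35.7% of the 32851 promoters of the table and in 46.9% of the 147 promoters listed for 115 of the window's genes. A TATA box (TATAAA or TTTATA) was in 13.6% and 5.44% of them, and in none of those printed. The median number of CG pairs was 7.0 per promoter in the whole table and 16.0 in those 147. The 115 genes had to meet the count minimum, and the 27025 genes of the whole table did not. The part of that minimum in these differences was not tested. These matches describe letters and show no binding.

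The libraries held 5898286 to 15539811 counts on genes. The ESC, NPC, PFC and STR samples were each highest for the summed markers of their own label. *Phf8* was at 54.7 to 59.5 CPM (counts scaled to the size of each library) in WT ESC and 13.4 to 19.6 CPM in KO ESC, and KO samples were below all WT samples in every tissue. Several libraries stood apart. ESC replicates 2 held fibroblast collagen markers at 3440 CPM (WT) and 4190 CPM (KO), against 156 and 148 CPM in replicates 1. KO STR replicate 1 held hypothalamic markers at 127 CPM, against 1.32 to 16.8 CPM in the other STR libraries, and cortical excitatory markers at 64.1 CPM, against 321 to 492 CPM. NPC replicates 2 held oligodendrocyte markers at 38.4 CPM (WT) and 161 CPM (KO), against 1320 to 2270 CPM in the other NPC libraries. Parts played by these markers in the results below were not tested, beyond the values without a library given beside them.

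Levels in the WT samples were compared between genes as RPKM (counts scaled to exon length and library size). *Gm49342*, whose identifier is uncertain as described below, was left out of the order of the most abundant members. It was at 89.9 and 92.25 CPM in WT ESC. Its 750 annotated exon bases may be too short a length for these counts, because the principal transcript of *Pnp* has 2942 bases. Its place in the order was thus not determined. In ESC the most abundant members were *Hnrnpc*, an RNA-binding protein of splicing, at 145 ± 11.3 RPKM (SD, n = 2), *Supt16*, a subunit of the FACT histone chaperone, at 120 ± 4.35 RPKM, and *Nedd8*, a ubiquitin-like modifier, at 87.1 ± 1.97 RPKM. In NPC they were *Ndrg2*, a gene known from astrocytes, at 111 ± 49.3 RPKM (n = 3), the lipase *Abhd4* at 109.9 ± 14.95 RPKM, and *Slc22a17*, a cell-surface receptor for lipocalin, at 96.4 ± 19.8 RPKM. The spread of *Ndrg2* exceeded its distance to the next members, so its place at the head of the order in NPC is not fixed.

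*Ndrg2* and *Slc22a17* also led both brain regions. *Ndrg2* stood at 75.3 ± 4.81 RPKM in STR and 77.6 ± 12.0 RPKM in PFC, and *Slc22a17* at 68.7 ± 4.66 and 63.9 ± 9.32 RPKM. The third in STR was *Jph4*, a neuronal junctophilin that ties the cell membrane to the endoplasmic reticulum, at 44.9 ± 0.692 RPKM, and in PFC it was *Nedd8* at 46.0 ± 9.56 RPKM. Of these 4 genes, only *Jph4* differed between the regions at FDR under 0.05, being lower in PFC.

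The window's genes were spread over all tissues. The WT mean was at least 1 RPKM in all 4 tissues for 80 of the 129 members, and 90 had 10 or more counts in all 22 libraries. The highest WT mean was in ESC for 61 members, in NPC for 29, in PFC for 20 and in STR for 19. Median levels over the 129 members were 7.40, 5.12, 6.74 and 6.63 RPKM in ESC, NPC, STR and PFC.

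**Figure D1:**
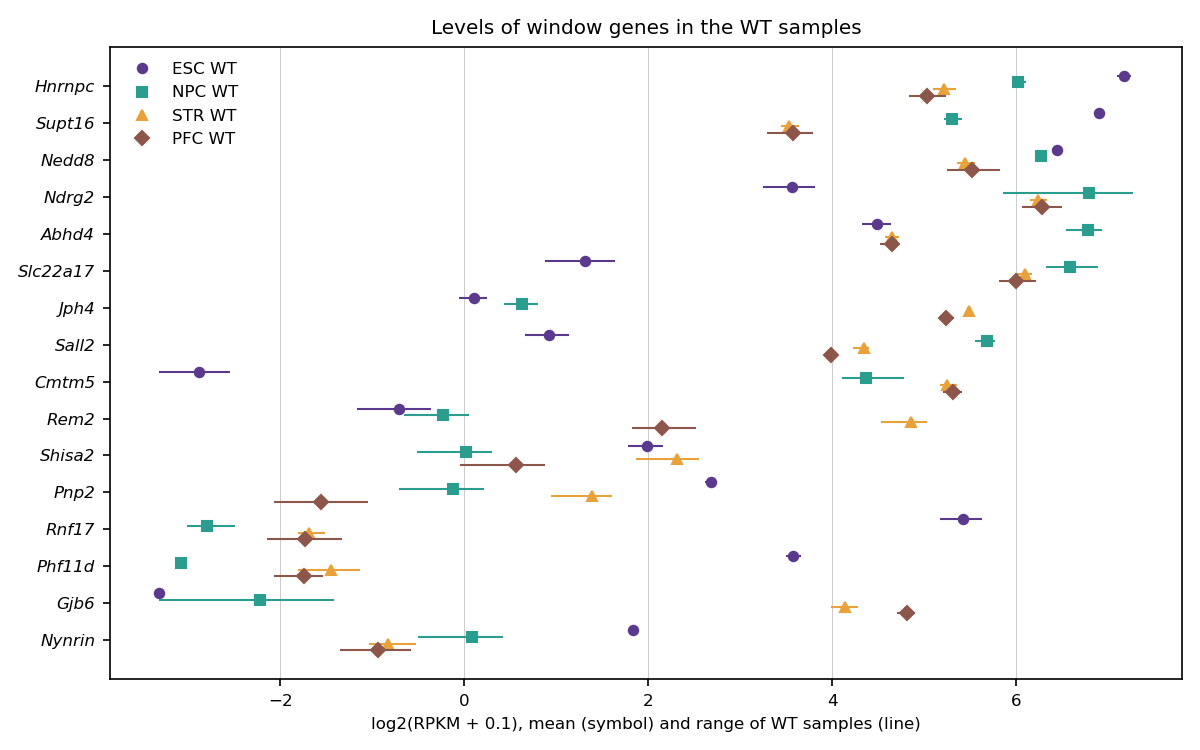
Levels of 16 genes of the window in the WT samples, as log2(RPKM + 0.1), with the mean as a symbol and the range of the 2 (ESC) or 3 (NPC, STR, PFC) samples as a line. *Rnf17* and *Phf11d* stand far to the right in ESC alone, *Sall2* and *Slc22a17* are low in ESC, and *Rem2* and *Pnp2* lie higher in STR than in PFC.

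WT NPC and WT ESC differed at FDR under 0.05 (edgeR's quasi-likelihood test) for 84 of the 116 members tested, 32 higher and 52 lower in NPC, where 71.2% of all genes tested differed. The members' share was thus close to that of all genes. The median log2 difference was -0.25 over the members and -0.02 over all genes. Fibroblast markers set the ESC replicates apart, and counts without a single library ran from 71 to 78.

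Several members had almost no counts in NPC. *Rnf17*, a tudor protein of spermatids, had 3035 and 2598 counts in the WT ESC and 6, 2 and 2 counts in the WT NPC libraries. *Phf11d* had 554 and 582 counts in WT ESC and 1 in each WT NPC library. *Atp12a*, a proton pump subunit, had 54 and 39 counts in WT ESC and none in any of the 6 NPC libraries of either genotype. With so few counts in NPC these genes are given as counts and not as folds.

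Other members were the reverse. *Sall2*, a zinc-finger transcription factor named after its values were seen, was at 6.72 and 9.87 CPM in WT ESC and at 259, 255 and 224 CPM in WT NPC, a log2 difference of 4.93 ± 0.22 (SE, adjusted p = 7.4e-05 by edgeR). *Slc22a17* was higher in NPC by 5.43 ± 0.37 on the log2 scale. *Cmtm5*, a membrane protein of myelinating cells, had 0 and 1 counts in WT ESC and 407, 223 and 287 in WT NPC. The antisense gene *Zfhx2os* had 2 and 7 counts in WT ESC and 248, 298 and 280 in WT NPC. Of its exon bases, 73.1% lie opposite exons of *Zfhx2*, so that reads of the pair could not be told apart without strand.

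Of all genes tested, 34.6% were higher and 36.6% lower in NPC at FDR under 0.05, and the functional lists stand beside those shares. Of RNA-binding and processing genes 6 of 9 were lower in NPC (*Hnrnpc*, *Osgep*, *Acin1*, *Ngdn*, *Nop9* and *Pspc1*) and *Pabpn1* higher. Genes of chromatin, transcription and genome maintenance had 12 of 21 lower, among them *Prmt5*, the arginine methyltransferase, with a log2 difference of -1.40 ± 0.09 and the FACT subunit *Supt16* with -1.49 ± 0.10, and 4 higher. Membrane traffic and transport genes had 7 of 16 higher and 4 lower. Signalling, adhesion and junction genes had 6 of 14 higher and 4 lower, and 3 of the 4 genes of cilium and centrosome were lower.

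WT PFC and WT STR differed for 25 of 113 members at FDR under 0.05, 10 higher and 15 lower in PFC, against 24.4% of all genes tested. The count was 34 with the replicate number, which paired these samples, as a block, where 34.7% of all genes were called. It was 16 without WT PFC replicate 1, 14 without WT STR replicate 1 and 16 without WT STR replicate 3. Of all genes, 19.4%, 18.9% and 18% were called in these fits. *Rem2*, a small GTPase that restrains calcium channels, was at 13.9, 8.56 and 9.90 CPM in PFC and 84.6, 59.5 and 80.7 CPM in STR, a log2 difference of -2.76 ± 0.19 (SE). The log2 difference was -3.27 ± 0.39 for *Pnp2* and -1.84 ± 0.26 for *Shisa2*, a modulator of Wnt and FGF receptor maturation. The regions did not overlap for any of these genes.

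The connexins were the other way round. *Gjb6* was at 76.5, 83.6 and 88.6 CPM in WT PFC and at 53.6, 48.5 and 59.6 CPM in WT STR, a log2 difference of 0.66 ± 0.10 (adjusted p = 0.00068 by edgeR), and *Gjb2* was higher in PFC by 1.22 ± 0.22 on the log2 scale. Astrocyte markers summed to 338 to 356 CPM in WT PFC and 242 to 269 CPM in WT STR, and their part in the connexin difference was not tested. *Gm26782*, the antisense neighbour of *Tep1*, was higher in PFC by 1.43 ± 0.30 and *Tep1*, a protein of telomerase and vault particles, by 0.76 ± 0.20. *Gm26782* varied widely within WT PFC, at 7.24, 17.5 and 12.3 CPM. In tissue, fewer cells of a type and less RNA per cell cannot be told apart.

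The genotypes were then compared within each tissue. No member passed FDR under 0.05 in any of the 4 tissues by edgeR's quasi-likelihood test, where 0% of all genes tested did so in ESC, 0.00697% in NPC, 0% in STR and 0.638% in PFC. DESeq2 called *Nynrin* in STR and *Cmtm5* in PFC at that threshold, where it called 0.343% and 1.28% of all genes. The exact test of edgeR called *Nynrin* in STR and *Cmtm5* and *Rcbtb1* in PFC, where it called 0.672% and 2.44% of all genes. At an unadjusted p under 0.05 the members numbered 2 of 109 in ESC, 9 of 107 in NPC, 8 of 116 in STR and 13 of 112 in PFC. The same rule called 1.13%, 3.03%, 8.7% and 11.2% of all genes tested. In STR and PFC, which the choice of the window did not use, the members' shares of 6.90% and 11.6% were near those of all genes.

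**Figure D2:**
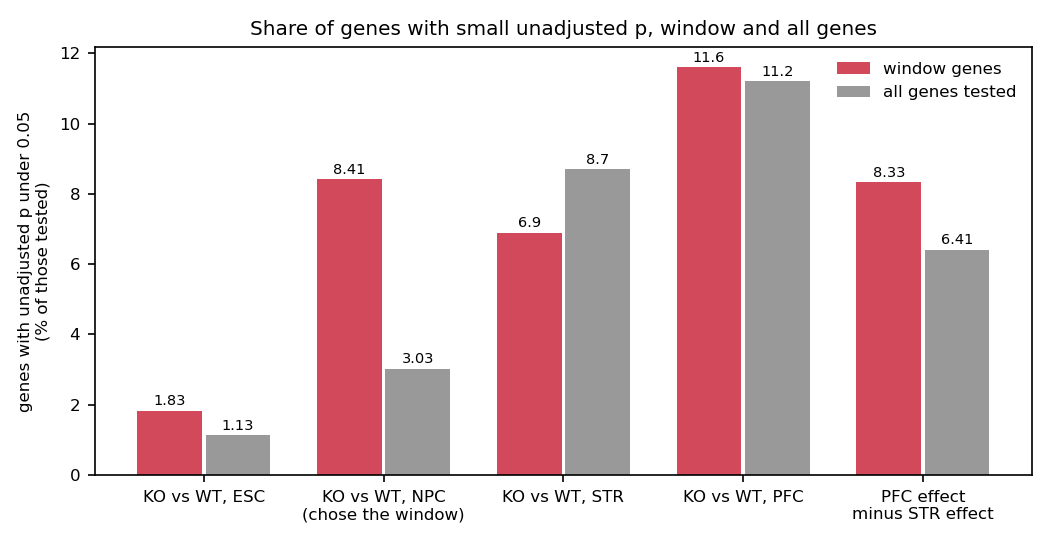
Percentage of genes with unadjusted p under 0.05 among those tested, for the window's genes (red) and all genes tested (grey), in the genotype comparison of each tissue and in the difference of the genotype effect between PFC and STR. The NPC comparison (8.41% against 3.03%) chose the window, and in STR (6.90% against 8.70%) and PFC (11.6% against 11.2%) the bars lie near each other.

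The median log2 fold change of the members, KO over WT, was -0.01 in ESC, 0.00 in NPC, 0.01 in STR and -0.03 in PFC, beside 0.01, 0.00, 0.00 and -0.02 over all genes. Over the alternative settings the members' medians ran from -0.02 to 0.04 in ESC, -0.03 to 0.02 in NPC, -0.02 to 0.03 in STR and -0.05 to -0.01 in PFC. The KO and WT samples did not overlap for 20 members in ESC (23.8% of all genes tested), 11 in NPC (8.33%), 9 in STR (13.4%) and 17 in PFC (17.1%), which are 18.3%, 10.3%, 7.76% and 15.2% of the members tested. Of the members, 80 overlapped in every tissue in which they were tested, 38 separated in 1 tissue, 8 in 2 and 1 in 3. The same split was not computed over all genes, so these counts are a description only.

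**Figure D3:**
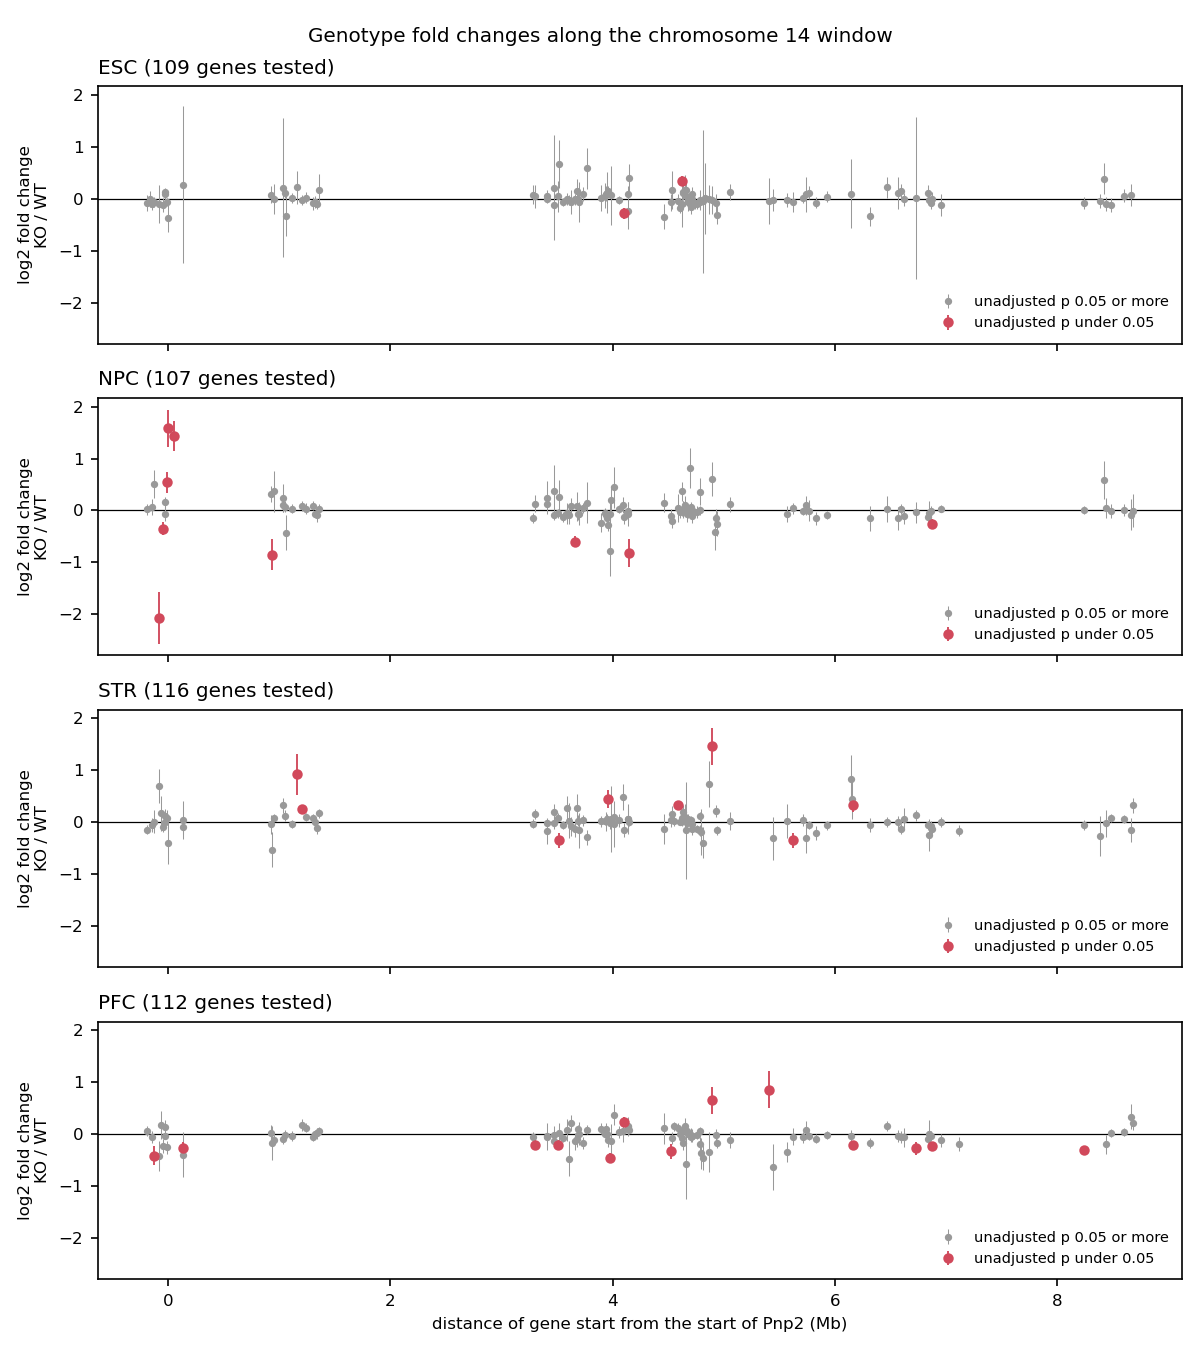
log2 fold change of KO over WT for the window's genes in each tissue, against the distance of the gene start from the start of *Pnp2* in Mb, with bars of 1 SE. In NPC 5 of the 9 red genes (unadjusted p under 0.05) lie within 0.14 Mb of each other at the left, with folds of both signs, and in STR and PFC the red genes are spread along the window.

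In NPC, the 9 genes were 3 higher and 6 lower in KO. Their values describe the choice of the window and carry no test. The NPC replicate numbers paired the samples, and with the number as a block 19 members had an unadjusted p under 0.05, 11 higher and 8 lower, where 10.5% of all genes did. All 9 genes were among the 19. Without the block, 4 members were left without KO NPC replicate 3 and 4 without WT NPC replicate 1. In those fits 1.51% and 2.72% of all genes had an unadjusted p under 0.05.

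*Pnp2* was at 0.712, 1.25 and 1.49 CPM in WT NPC and at 4.58, 2.59 and 3.22 CPM in KO NPC, a log2 fold change of 1.58 ± 0.36 (SE). *Rnase10*, a ribonuclease A family gene known from the epididymis, was at 0.570, 0.664 and 0.711 CPM in WT and 2.10, 1.40 and 1.82 CPM in KO, on 8 to 27 counts a library. Every KO sample of both genes was above every WT sample. *Gm49342* overlapped, with 45.7, 44.6 and 57.4 CPM in WT and 91.9, 55.7 and 68.1 CPM in KO.

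The identifier named *Gm49342* here (ENSMUSG00000021871) is uncertain. In the annotation used, 95.7% of its exon bases are also exons of *Pnp*, which has an identifier of its own that the count tables do not use, so its counts stand for the *Pnp* locus as a whole. The principal transcripts of *Pnp* and *Pnp2* also share sequence. Of the 50-base windows of the *Pnp2* transcript, 33.1% occur in that of *Pnp*. Reads that mapped to both genes were left uncounted, which lowers the counts of both.

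On the lower side, the antisense gene *Gm26782* was at 1.07, 0.996 and 1.03 CPM in WT NPC and 0.0776, 0.210 and 0.421 CPM in KO NPC, on 12 to 16 counts in WT and 1 to 6 in KO. *Osgep*, the enzyme subunit that makes a modified base of transfer RNAs, was at 19.9, 22.4 and 18.4 CPM in WT and 16.7, 15.6 and 15.3 CPM in KO. *Apex1*, the base excision repair endonuclease that shares promoter bases with *Osgep*, was at 16.7, 17.0 and 15.2 CPM in WT and 15.2, 17.7 and 13.7 CPM in KO. The genotypes separated for *Osgep* and overlapped for *Apex1*.

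The other 4 lie outside this stretch. *Psmb5*, the chymotrypsin-like subunit of the proteasome, was at 19.3, 18.9 and 20.4 CPM in WT NPC and 12.9, 12.6 and 13.2 CPM in KO NPC, a log2 fold change of -0.60 ± 0.10 with little spread within either genotype. *Slc39a2*, a zinc importer, was at 2.35, 1.74 and 2.65 CPM in WT and 0.932, 1.54 and 1.26 CPM in KO. *Jph4* was at 10.2, 9.05 and 7.76 CPM in WT and 6.68, 3.43 and 5.19 CPM in KO. *Zdhhc20*, a palmitoyltransferase, was at 153, 145 and 138 CPM in WT and 136, 117 and 110 CPM in KO. All 4 separated, with *Slc39a2*, *Jph4* and *Zdhhc20* by gaps smaller than the range within a genotype.

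*Ppp1r3e*, the glycogen-targeting phosphatase subunit that the rule left out, lies in the same window. It was at 16.6, 14.4 and 18.9 CPM in WT NPC and 3.96, 3.22 and 4.77 CPM in KO NPC.

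**Figure D4:**
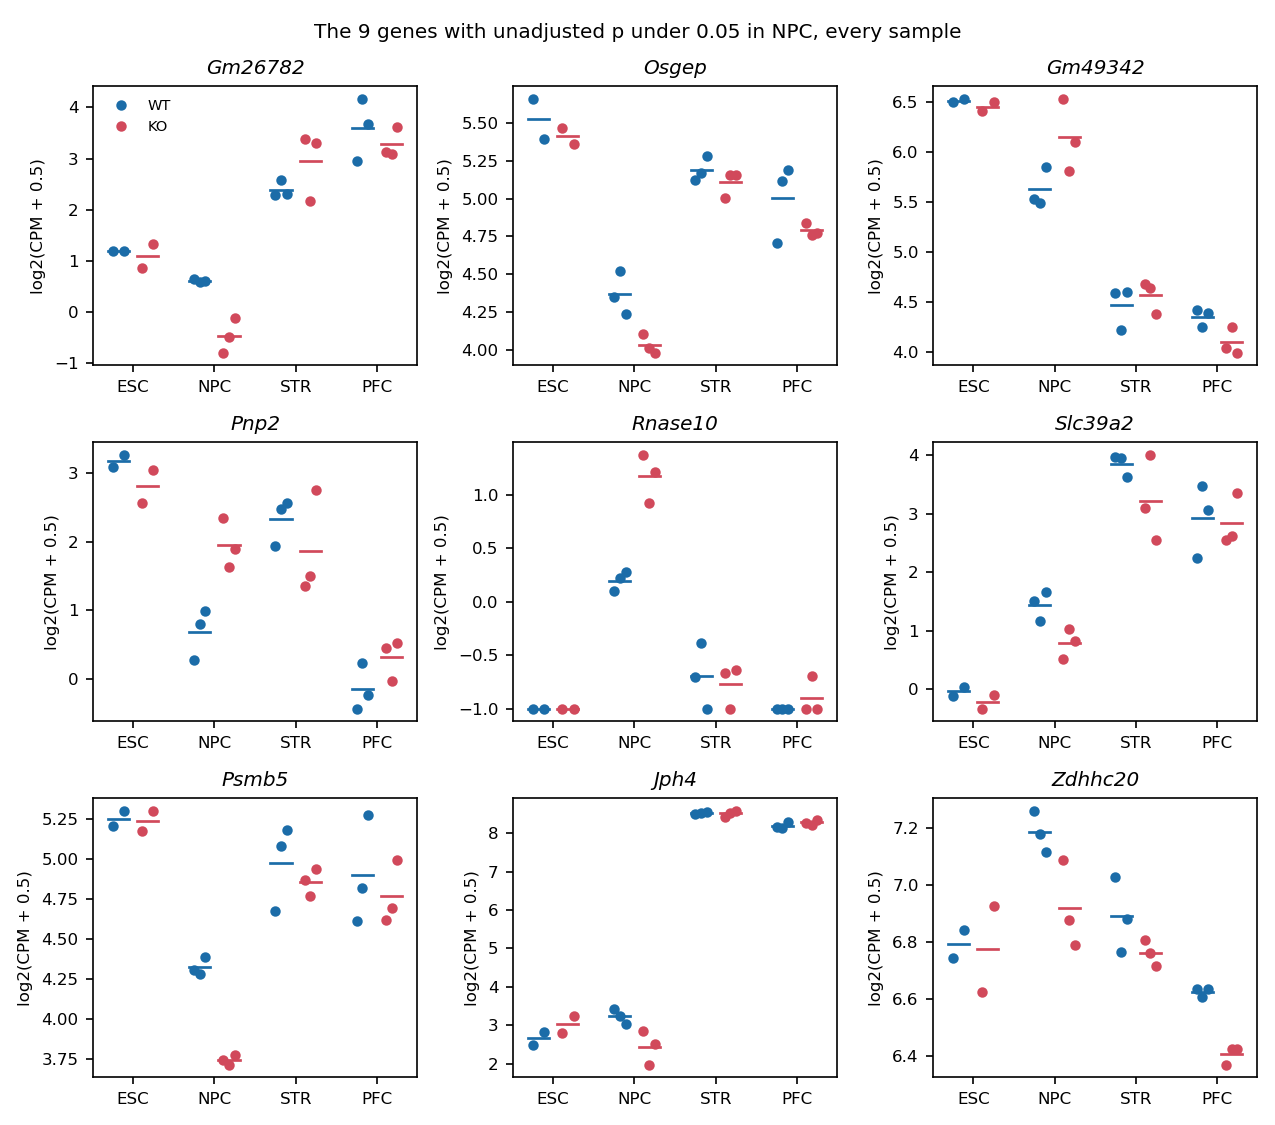
Every sample of the 9 genes with unadjusted p under 0.05 in NPC, as log2(CPM + 0.5), WT in blue and KO in red, with a line at the mean, CPM being scaled within each tissue. The genotypes separate in NPC for all but *Gm49342*, and the red and blue points mix in most panels of the other tissues.

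The same 9 genes were followed in the tissues that the rule did not use. In ESC 7 were tested, 4 had the sign seen in NPC, and none had an unadjusted p under 0.05. In STR 8 were tested, 6 had that sign and none had an unadjusted p under 0.05. In PFC 7 were tested, 5 had that sign and only *Zdhhc20* had an unadjusted p under 0.05. Of all genes tested, 1.13% in ESC, 8.7% in STR and 11.2% in PFC had such a p. Over all genes, fold changes were positive for 7928 and negative for 7152 in ESC, 7827 and 7649 in STR, and 6780 and 8584 in PFC. How many of all genes kept their NPC sign was not computed, so the sign counts are a description only.

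*Pnp2* did not keep its direction in ESC and STR. It was at 7.995 and 9.12 CPM in WT ESC and 5.43 and 7.77 CPM in KO ESC, a log2 fold change of -0.38 ± 0.26, and at 3.34, 5.09 and 5.40 CPM in WT STR against 2.07, 2.33 and 6.20 CPM in KO STR. *Psmb5* was at 36.3 and 38.8 CPM in WT ESC and 35.5 and 38.9 CPM in KO ESC, with a log2 fold change of -0.01 ± 0.11. Its log2 fold changes in STR and PFC, -0.13 ± 0.14 and -0.14 ± 0.16, were within about 1 SE of 0. In PFC, where *Pnp2* was too low to be tested at 2 to 7 counts a library, it was at 0.241, 0.673 and 0.347 CPM in WT and 0.867, 0.478 and 0.939 CPM in KO, which overlapped with the KO mean higher as in NPC. *Rnase10* had no count in any ESC library and at most 2 in any brain library.

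*Gm26782* had opposite signs in the brain regions. In STR it was at 4.37, 5.49 and 4.43 CPM in WT and 9.95, 4.02 and 9.38 CPM in KO, a log2 fold change of 0.71 ± 0.33. In PFC it was at 7.24, 17.5 and 12.3 CPM in WT and 8.30, 8.02 and 11.8 CPM in KO, a log2 fold change of -0.42 ± 0.29. The genotypes overlapped in both regions.

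*Zdhhc20* was the gene of the 9 that separated in NPC and in PFC. In PFC it was at 98.9, 97.0 and 98.8 CPM in WT and 82.1, 85.4 and 85.3 CPM in KO, a log2 fold change of -0.22 ± 0.07 that missed the threshold (adjusted p = 0.200 by edgeR). In STR the log2 fold change was -0.13 ± 0.08, with 130, 108 and 117 CPM in WT and 112, 108 and 104.5 CPM in KO. The STR genotypes overlapped.

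In ESC the 2 members with an unadjusted p under 0.05 were *Psme1* and *Zfhx2*. *Psme1*, a subunit of the interferon-induced proteasome activator, was at 41.8 and 40.5 CPM in WT and 54.4 and 49.7 CPM in KO, a log2 fold change of 0.34 ± 0.09 (adjusted p = 1 by edgeR). *Zfhx2*, a homeobox factor of neurons, was at 29.9 and 30.1 CPM in WT and 24.5 and 24.8 CPM in KO, a log2 fold change of -0.28 ± 0.10. Both separated by genotype, and neither passed the adjusted threshold without a replicate block. With the replicate number as a block *Psme1* passed (adjusted p = 0.00135 by edgeR) and *Zfhx2* did not (adjusted p = 0.076). In that blocked fit 3.4% of all genes passed.

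The ESC libraries differed more by replicate than by genotype. *Rnase4*, of the ribonuclease A family, was at 3.49 CPM in WT replicate 1 and 31.6 CPM in WT replicate 2, and at 5.36 and 37.0 CPM in the KO. In all, 6 members differed 2-fold or more between replicates in the same direction in both genotypes, and all 6 were higher in replicates 2: *Lats2*, *Rnase4*, *Arhgef40*, *Mmp14*, *Adcy4* and *Ripk3*, named after their values were seen. Fibroblast collagen markers were higher in the same libraries, and their part in this was not tested.

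In STR the 8 members with an unadjusted p under 0.05 were 6 higher in KO (*Nynrin*, *Pck2*, *Supt16*, *Efs*, *Gjb6* and *Rpgrip1*) and 2 lower (*Parp4* and *Rem2*). *Nynrin*, a gene derived from a retroviral integrase, had the smallest p. It was at 5.18, 3.35 and 3.46 CPM in WT and 16.5, 6.48 and 10.2 CPM in KO, a log2 fold change of 1.46 ± 0.35 (adjusted p = 0.397 by edgeR). The lowest KO sample stood above the highest WT sample, and the KO samples ranged widely. The exon bases of *Nynrin* lie to 56.5% opposite an antisense gene.

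*Pck2*, the mitochondrial enzyme of phosphoenolpyruvate synthesis, was at 34.6, 34.8 and 37.4 CPM in WT STR and 45.5, 45.8 and 42.4 CPM in KO STR, a log2 fold change of 0.32 ± 0.09. *Supt16* was at 72.0, 62.5 and 64.5 CPM in WT and 84.0, 74.4 and 79.2 CPM in KO. Both separated. The others overlapped except *Parp4*, a poly(ADP-ribose) polymerase of vault particles, at 18.2, 16.5 and 18.4 CPM in WT and 12.1, 15.8 and 13.7 CPM in KO.

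Without KO STR replicate 1, the library with hypothalamic markers, only *Nynrin* and *Pck2* kept an unadjusted p under 0.05, so 2 members remained of 8. Without that library 4.99% of all genes had an unadjusted p under 0.05. Without KO STR replicate 2 there were 13 of 119 members, where 13.5% of all genes had an unadjusted p under 0.05.

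In PFC the 13 members with an unadjusted p under 0.05 were 10 lower and 3 higher in KO, beside 6.50% lower and 4.73% higher of all genes tested. DESeq2 gave 5 members, 3 lower and 2 higher, where it gave 7.67% of all genes, and the edgeR count without KO PFC replicate 3 was also 3 lower and 2 higher, where 7.37% of all genes were called. Without KO PFC replicate 1 or 2 it was 8, where 8.3% and 8.46% of all genes were called. *Cmtm5* was at 48.9, 53.0 and 57.0 CPM in WT and 38.9, 40.6 and 35.7 CPM in KO, a log2 fold change of -0.46 ± 0.09 (adjusted p = 0.0539 by edgeR, just above the threshold). *Rcbtb1*, a protein with chromosome condensation repeats and a BTB domain, was at 73.0, 80.9 and 78.3 CPM in WT and 62.8, 65.0 and 59.4 CPM in KO, a log2 fold change of -0.31 ± 0.08 (adjusted p = 0.112 by edgeR). Both genes separated by genotype in PFC.

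*Gjb6* was at 76.5, 83.6 and 88.6 CPM in WT PFC and 72.8, 71.3 and 70.4 CPM in KO PFC, a log2 fold change of -0.21 ± 0.08. *Abhd4* differed by -0.20 ± 0.09, with overlap. The others lower in KO were *Zdhhc20*, *Lrp10*, *Rnase4*, *Dhrs4*, *Lats2* and *Tep1*, with log2 fold changes from -0.20 to -0.41. Markers of oligodendrocytes, cells that express *Cmtm5*, summed to 1320 to 1780 CPM in WT PFC and 1100 to 1170 CPM in KO PFC, and those of astrocytes, cells that express *Gjb6*, to 338 to 356 CPM and 270 to 292 CPM. All 4 oligodendrocyte and 3 astrocyte markers were detected in both genotypes, and their part in these differences was not tested.

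Higher in KO PFC were *Zfhx2*, *Nynrin* and *Atp12a*. *Zfhx2* was at 68.2, 76.3 and 63.2 CPM in WT and 88.9, 81.1 and 76.6 CPM in KO, a log2 fold change of 0.24 ± 0.09, and the lowest KO sample was just above the highest WT sample. *Nynrin* was at 3.38, 4.71 and 2.43 CPM in WT and 7.31, 5.38 and 4.43 CPM in KO, a log2 fold change of 0.65 ± 0.27 with overlap. *Nynrin* was thus the member with an unadjusted p under 0.05 and the same sign in both brain regions. By edgeR's quasi-likelihood test it passed FDR under 0.05 in neither, while in STR it passed by DESeq2 (adjusted p = 0.0404) and by edgeR's exact test (adjusted p = 0.0223).

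**Figure D5:**
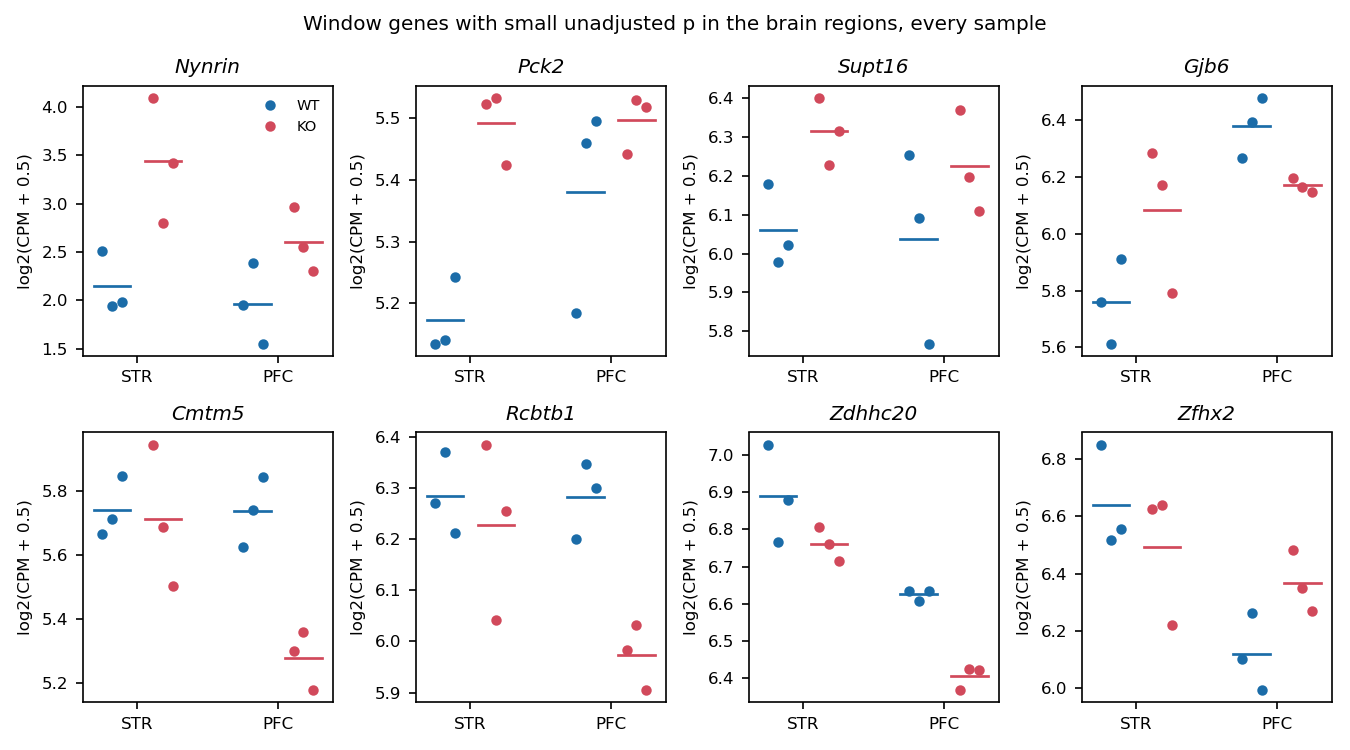
Every STR and PFC sample of 8 genes of the window with a small unadjusted p in at least 1 brain region, as log2(CPM + 0.5), WT in blue and KO in red, with a line at the mean, CPM being scaled within each region. *Cmtm5*, *Rcbtb1* and *Zdhhc20* separate by genotype in PFC with KO lower, *Nynrin* and *Pck2* in STR with KO higher, and *Gjb6* has opposite signs in the regions.

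The difference between the genotype effects of PFC and STR was tested directly. The fit left out the pairing of same-numbered PFC and STR samples, and its blocked alternative joined same-numbered samples within a region only. No member passed FDR under 0.05, where 0.00624% of all genes did, and 10 of 120 had an unadjusted p under 0.05, where 6.41% of all genes did. By DESeq2 these counts were 0 and 8, where 0.119% and 5.2% of all genes were called. Without KO PFC replicate 2 or 3 or without WT STR replicate 1 or 2, 6 members had an unadjusted p under 0.05. Of all genes, 4.41 to 5.67% did so in these fits. The smallest p was that of *Gjb6*, with 53.6, 48.5 and 59.6 CPM in WT STR and 77.5, 71.6 and 54.8 CPM in KO STR, so that the effects were 0.34 ± 0.13 in STR and -0.21 ± 0.08 in PFC and their difference -0.52 ± 0.16 on the log2 scale (adjusted p = 0.620 by edgeR). *Atp12a* followed, on at most 18 counts a library, and then *Cmtm5*, whose difference was -0.42 ± 0.15.

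By function, each list held few such genes in the genotype comparisons. Of all genes tested, 1.13% in ESC, 3.03% in NPC, 8.7% in STR and 11.2% in PFC had an unadjusted p under 0.05. Among the genes of chromatin, transcription and genome maintenance, 1 of 21 in ESC, 0 of 18 in NPC, 2 of 20 in STR and 2 of 20 in PFC had an unadjusted p under 0.05. RNA-binding and processing genes had 1 of 9 in NPC (*Osgep*) and none in the other tissues. Proteasome and ubiquitin-like conjugation genes had *Psme1* in ESC and *Psmb5* in NPC of 6 tested. Mitochondrial and metabolic genes had 0 of 12 in ESC, 0 of 12 in NPC, 1 of 13 in STR (*Pck2*) and 2 of 13 in PFC (*Abhd4* and *Dhrs4*). Membrane traffic and transport genes had 0 of 14, 2 of 15, 0 of 15 and 3 of 16 in the same order.

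The cardiac myosins gave none in any tissue. *Myh7* was at 26.8, 21.4 and 28.8 CPM in WT STR and 25.6, 29.2 and 27.7 CPM in KO STR. Signalling, adhesion and junction genes had 0 of 14, 1 of 12, 3 of 16 and 2 of 16 in ESC, NPC, STR and PFC. The shares of all genes were 1.13%, 3.03%, 8.7% and 11.2%. Of the ribonuclease A family, 4 genes were members and at most 2 were tested in a tissue, with *Rnase10* in NPC and *Rnase4* in PFC at an unadjusted p under 0.05. Among cilium and centrosome genes 1 of 4 did so in STR (*Rpgrip1*) and none in the other tissues.

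Over the 1 Mb bins, the 9 genes of NPC fell as 4 of 9 tested between 50 and 51 Mb, 2 of 6 between 51 and 52 Mb, and 1 each of 27, 30 and 11 in 3 later bins. In STR, the first 2 of these bins held 0 of 10 and 0 of 6 tested. In PFC they held 1 of 9, *Tep1*, and 1 of 6, *Rnase4*, and the other 11 genes lay in later bins. Over all genes tested, 3.03% in NPC, 8.7% in STR and 11.2% in PFC had an unadjusted p under 0.05. The NPC comparison chose the window, so its bins carry no test.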

How the data were processed

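The authors deposited raw counts per gene, 1 table per library, without normalization. Per the labels and the study's methods, reads went through CASAVA 1.7, STAR (version not given in the sources used here, build mm10) and HTSeq with Ensembl release 75. The names of the ESC and NPC tables mark the counting as not stranded. For the brain tables the setting is not given in the sources used here. Libraries were grouped by their titles. Of 39179 gene identifiers, 37693 matched GENCODE mouse release 21 (99.709% of counts), which gave positions, exons and names. HTSeq rows that name no gene stayed out. Reads that mapped to several places, left uncounted by the authors, were 43.2 to 45.5% of all reads reported per table in ESC, 33.2 to 34.3% in NPC and 7.62 to 8.90% in brain, which lowers counts of near-identical genes.

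Genotypes were compared within each tissue on all genes with edgeR 4.0.16 in R 4.3.3 (quasi-likelihood test, TMM, filterByExpr, robust, no replicate block), with Benjamini-Hochberg adjustment over all genes tested. Members, lists and tests were chosen with earlier results of these data known. CPM came from each tissue's own fit, and RPKM from 1 TMM scaling of all 22 libraries and the exon length. The order of the most abundant members left out *Gm49342*. Named genes were members at FDR under 0.05 in a genotype comparison, the 5 members on each side with the smallest unadjusted p under 0.05 in each genotype comparison, the 3 on each side with the largest fold in each WT comparison, the 3 most abundant per tissue, the 3 with the smallest p for the PFC and STR difference, members of a described list, *Pnp2*, and members separated in 3 tissues, plus *Sall2* and 6 ESC genes named after their values were seen. Alternatives were DESeq2 1.42.0, edgeR's exact test, RLE size factors, no filter, the membership filter, the replicate number as a block, each library left out, and a fold criterion. The tests were checked on simulated counts.

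Same-numbered NPC samples deviated together from their group means (correlations of 0.569, 0.705 and 0.524 over genes), and so did same-numbered WT PFC and WT STR samples (0.36, 0.186 and 0.392), so numbers were taken to pair those samples. Total counts per library, 5898286 to 15539811, and the number of libraries limit the precision. No pair of libraries of a group agreed within sampling noise. No per-sample column was left unused.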

Additional observations from a re-analysis of the deposited data

Results flagged for a closer look

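In all, 3 members had every KO sample above every WT sample in 1 tissue and every KO sample below every WT sample in another. How many of all genes did so was not computed, so the count is a description only. The differences between tissues were not tested, except for *Psme2* between STR and PFC. *Pnp2* was higher in KO NPC (log2 fold change 1.58) and lower in KO ESC (-0.38). *Zfhx2* was higher in KO PFC (0.24) and lower in KO ESC (-0.28). *Psme2*, partner of *Psme1* in the proteasome activator, was higher in KO ESC (0.14) and KO STR (0.20) and lower in KO PFC (-0.16), and its difference between PFC and STR was -0.33 ± 0.17 on the log2 scale (adjusted p = 0.829 by edgeR). It was the member that separated in 3 tissues, with 11.3, 10.7 and 11.3 CPM in KO PFC against 11.95, 12.3 and 13.02 CPM in WT PFC. ESC has 2 samples a genotype, where 23.8% of all genes separated. Groups of 2 or 3 samples allowed no test of single samples.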

How the results depend on the processing

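The direction of all 40 named member results held under every alternative, 458 values in all. These results were chosen for small p-values, or for large folds in the WT comparisons, in the same libraries. Those of NPC came from the comparison that chose the window. The alternatives refit the same counts, so a kept direction lends no support. The side of the threshold was kept in 386 of them and lost in 72. Members with an unadjusted p under 0.05 in ESC, 2 in the reported fit, numbered 1 by DESeq2, 0 by the exact test, 1 without a filter, 13 of 109 with the replicate block, where 15.6% of all genes were called, and 0 to 1 with a library left out. In NPC, the blocked count was 19 against 9 and leaving out a library gave 4 to 10, with 4 without KO replicate 3 and 4 without WT replicate 1. In STR the range was 2 (without KO replicate 1) to 13 (without KO replicate 2), against 8, and in PFC DESeq2 gave 5 against 13 and leaving out a library gave 5 to 14, with 8 without KO replicate 1, 8 without KO replicate 2 and 5 without KO replicate 3. For the PFC and STR difference, 10 in the reported fit, it was 6 to 12, with 6 without KO PFC replicate 2 or 3 and without WT STR replicate 1 or 2. The cause was not tested. Shares of all genes under the named fits of NPC, STR, PFC and the difference stand with their results above.

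At FDR under 0.05, with no member called in the reported fits, *Psme1* was called in ESC with the replicate block (1 member, adjusted p = 0.00135, others up to 1), and *Nynrin* in STR by DESeq2 (1 member, adjusted p = 0.0404) and the exact test (1 member, 0.0223), others up to 0.851. In PFC DESeq2 called 1 member, *Cmtm5* (adjusted p = 0.025), the exact test 2, *Cmtm5* and *Rcbtb1* (0.00264 and 0.0362), and no filter and the membership filter 1 each. Leaving out a library gave 0 to 1 in PFC, the 1 being *Cmtm5* without WT replicate 1, where 0.988% of all genes were called. It gave 0 in NPC, STR and the difference. Over all alternatives the adjusted p of *Cmtm5* ran from 0.00264 to 0.322 and that of *Rcbtb1* from 0.0362 to 0.513. In NPC no alternative called a member.

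WT PFC against WT STR gave 14 to 25 members with a library left out, with 16 without WT PFC replicate 1, 14 without WT STR replicate 1 and 16 without WT STR replicate 3, and 34 with the replicate block. WT NPC against WT ESC gave 71 to 78 and, with the block, 59, where 54.4% of all genes were called. Within STR and within PFC, same-numbered WT and KO samples did not deviate together. In the genotype comparisons the block moved the STR count from 8 to 9 and the PFC count from 13 to 12. Same-numbered ESC samples deviated together (correlation 0.876), but they form only 2 pairs and no label says what the number marks, so the ESC fit was kept without the block.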
